A study of Mus musculus with 6 samples.

Results

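The genes described here, chosen by name, are 10 regulators of entry into and passage through the M phase of the cell cycle. They are the kinases *Cdk1*, *Plk1*, *Aurka*, *Aurkb*, *Aurkc*, *Wee1* and *Bub1* and the phosphatases *Cdc25a*, *Cdc25b* and *Cdc25c*. All 10 were found among the 54532 genes of the deposited table, and all 10 reached a mean of 1 FPKM (fragments on a gene, scaled to its length and to the size of the library), from which level on a gene was tested, as did 15451 genes in all. RNA-seq was performed on STRA8+ germ cells of the mouse testis. The 3 control libraries have the genotype Cre, and the 3 cKO libraries are a conditional knockout of *Srsf1*, which encodes a splicing factor of the SR family. The Cre line, the age of the mice, the way in which the cells were isolated and any pooling of animals are not given in the sources used here. Replicates are numbered, but it is not stated that they come from separate animals, so the p-values measure the spread between these libraries, which may be technical.

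Entry into M phase depends on CDK1 bound to a B- or A-type cyclin. WEE1 holds CDK1 inactive by phosphorylating it, the CDC25 phosphatases remove this phosphate, and PLK1 and Aurora A act upstream to switch the balance towards CDC25. Aurora B, Aurora C and BUB1 work at centromeres, where they correct the attachment of chromosomes to the spindle, and Aurora C is best known from meiotic cells. In the testis the same machinery serves the mitoses of spermatogonia and, after a long meiotic prophase, the divisions of spermatocytes.

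Between 14447887 and 17310353 fragments per library could be recovered from the FPKM values. *Srsf1* was at 84.7, 45.2 and 51.9 FPKM in control replicates 1, 2 and 3 and at 5.08, 4.94 and 5.17 FPKM in the cKO replicates, a fall by 3.29 on the log2 scale (SE 0.22, limma, Benjamini-Hochberg adjusted p = 5.6e-05). The 4 germ cell markers *Ddx4*, *Dazl*, *Stra8* and *Mael* summed to between 1039 and 1129 FPKM in the control and between 1077 and 1251 FPKM in the cKO libraries, but moved in both directions, with *Dazl* higher (log2 fold change 0.43, adjusted p = 0.016), *Mael* (-0.43, 0.0061) and *Ddx4* (-0.24, 0.048) lower and *Stra8* not called (0.15, 0.36). All 8 markers of pachytene spermatocytes were lower in the cKO, with a sum of 939 to 1129 FPKM in the control and 148 to 157 FPKM in the cKO, and all 9 markers of spermatids were lower as well. Markers of early meiotic prophase summed to 933 to 1274 and 943 to 1249 FPKM, with 0 higher and 2 lower of 10 by limma, by limma-voom and at an unadjusted p below 0.05 alike. Of 6 markers of differentiating spermatogonia, 0 were higher and 1 lower by limma (1 and 1 by limma-voom, 2 and 1 at an unadjusted p below 0.05), and of 6 of undifferentiated spermatogonia, 1 was higher and 1 lower (3 and 1, 2 and 1). Over all genes tested, 11.8% were called higher and 22.2% lower. Control replicate 2 stood apart, with spermatid markers summing to 8409 FPKM against 2553 and 2506 FPKM in control replicates 1 and 3 and at most 8.60 FPKM in the cKO, and without it the call of *Plk1* alone, of the 10 genes, was another. Of the Sertoli cell markers, 1 of 7 was higher. Their sum was 28.0 to 41.8 FPKM in the control and 69.0, 25.5 and 41.6 FPKM in cKO replicates 1, 2 and 3, and all 7 were highest in cKO replicate 1, without which *Cdc25a* alone of the 10 genes had another call. None of the tested Leydig, peritubular, macrophage and blood markers (2, 1 and 2 genes) was called by limma, with 1 Leydig marker higher at an unadjusted p below 0.05 and by limma-voom. Mitochondrial transcripts made up 2.22 to 2.27% of the fragments in the control and 2.72 to 3.31% in the cKO. In bulk RNA, fewer cells of a type and less RNA per cell cannot be told apart, and the part of these differences in the results below was not tested.

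Promoter windows of RefSeq (GRCm38.p6, from 250 bases upstream to 50 bases downstream of the transcription start) were at hand for 7 of the 10 genes, all but *Cdc25c*, *Aurkb* and *Wee1*. Each window was searched on both strands for the CCAAT box (CCAAT, read as ATTGG on the other strand), for the cell cycle homology region (CHR, as TTTGAA or TTTAAA) and for the MYB motif (TAACNG), elements known from promoters of G2/M genes. For 4 genes 120 bases are shown, on the strand of the gene, with CCAAT and CHR matches in capitals. They end just upstream of the RefSeq start in *Cdc25b* and *Plk1*, and in *Cdk1* and *Aurkc* just upstream of the gene in the deposited table, which begins 26 and 85 bases before the RefSeq start. Positions are counted from the RefSeq start, so the *Cdk1* stretch runs from -146 to -27 and the *Aurkc* stretch from -205 to -86. *Cdc25b* and *Aurkc* are shown because their RNA differed between the groups, and *Cdk1* and *Plk1* because they carry CHR letters upstream of the start. The regions are chr2:131186828-131186947 (plus strand) for *Cdc25b*, chr7:6995180-6995299 (plus strand) for *Aurkc*, chr10:69352939-69353058 (minus strand) for *Cdk1* and chr7:122159315-122159434 (plus strand) for *Plk1*.
Cdc25b: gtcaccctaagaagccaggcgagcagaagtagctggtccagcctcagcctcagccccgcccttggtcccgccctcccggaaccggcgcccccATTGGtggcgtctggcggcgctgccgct
Aurkc: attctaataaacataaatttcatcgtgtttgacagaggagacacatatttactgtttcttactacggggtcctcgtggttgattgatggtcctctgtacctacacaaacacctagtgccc
Cdk1: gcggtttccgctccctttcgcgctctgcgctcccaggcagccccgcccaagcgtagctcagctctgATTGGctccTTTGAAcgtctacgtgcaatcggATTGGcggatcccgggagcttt
Plk1: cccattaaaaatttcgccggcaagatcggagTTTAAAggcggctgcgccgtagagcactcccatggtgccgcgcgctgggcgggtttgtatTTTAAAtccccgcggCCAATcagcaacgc

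CCAAT was present in 7 of 7 windows of these genes, against 41.1% of 27025 genes with a window and 62.2% of the 74 pathway genes described below that have one. In 6 of the 7 it lay upstream of the start, at positions -48, -80 and -208 in *Cdk1*, -81 and -131 in *Cdc25a*, -28 in *Cdc25b*, -14 in *Plk1*, -19 and -51 in *Aurka* and -42 and -68 in *Bub1*. *Aurkc* was the exception, with its match inside the transcribed part, at 25 to 29 bases from the start, and none upstream of the RefSeq start. CHR letters were found in 3 of the 7 windows (*Cdk1*, *Plk1*, *Aurka*), against 30.6% of all genes and 47.3% of the pathway genes, and MYB letters in 2 (*Cdc25b*, *Aurka*), against 25.9% of all genes. The upstream 250 bases of *Aurkc* had a GC content of 44.8%, and those of the other 6 genes lay between 53.6 and 68.4%. These matches describe the letters of the windows and were not tested for use.

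Levels of the 10 genes differed widely within a group. In the control, *Bub1* was highest (103 ± 12.6 FPKM, SD, n = 3), above 97.6% of the 12320 protein-coding genes tested. It was followed by *Wee1* (35.4 ± 1.61 FPKM). *Aurka*, *Plk1*, *Cdc25a* and *Aurkb* came next, each overlapping its neighbour, at 22.1 to 15.1 FPKM. *Cdk1*, *Cdc25c* and *Cdc25b* formed an overlapping lower group at 8.04 to 5.96 FPKM, and *Aurkc* had the lowest mean (5.01 ± 0.42 FPKM). It was separate from *Cdc25b* but not from *Cdc25c*, which was below it in control replicate 3. In the cKO the order was *Bub1*, *Wee1*, *Plk1*, *Cdc25a*, *Aurka*, *Aurkb*, *Cdk1*, *Cdc25b*, *Cdc25c* and *Aurkc*. There *Plk1* was separate from *Cdc25a* below it, whereas *Cdc25a*, *Aurka* and *Aurkb* overlapped in turn, as did *Cdk1*, *Cdc25b* and *Cdc25c*. By their means, *Bub1* and *Wee1* were at the top and *Aurkc* at the bottom of the order in both groups. In the cKO *Aurkc* was below the other 9 genes in every library and lay above 22.0% of the protein-coding genes tested. Genes under the level for testing were not part of this ranking.

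Of the 10 genes, 2 were higher in the cKO (*Wee1* and *Cdc25b*), 1 was lower (*Aurkc*) and 7 did not pass the threshold of 0.05 on the adjusted p. Over all 15451 genes tested, 11.8% were higher and 22.2% were lower. In 6 of the 10 genes no cKO library fell within the range of the control libraries, which held for 50.4% of all genes tested. The median log2 fold change of the 10 genes was 0.24, and that of all genes tested was -0.0082. With so few genes these shares are given as a description only.

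**Figure D1:**
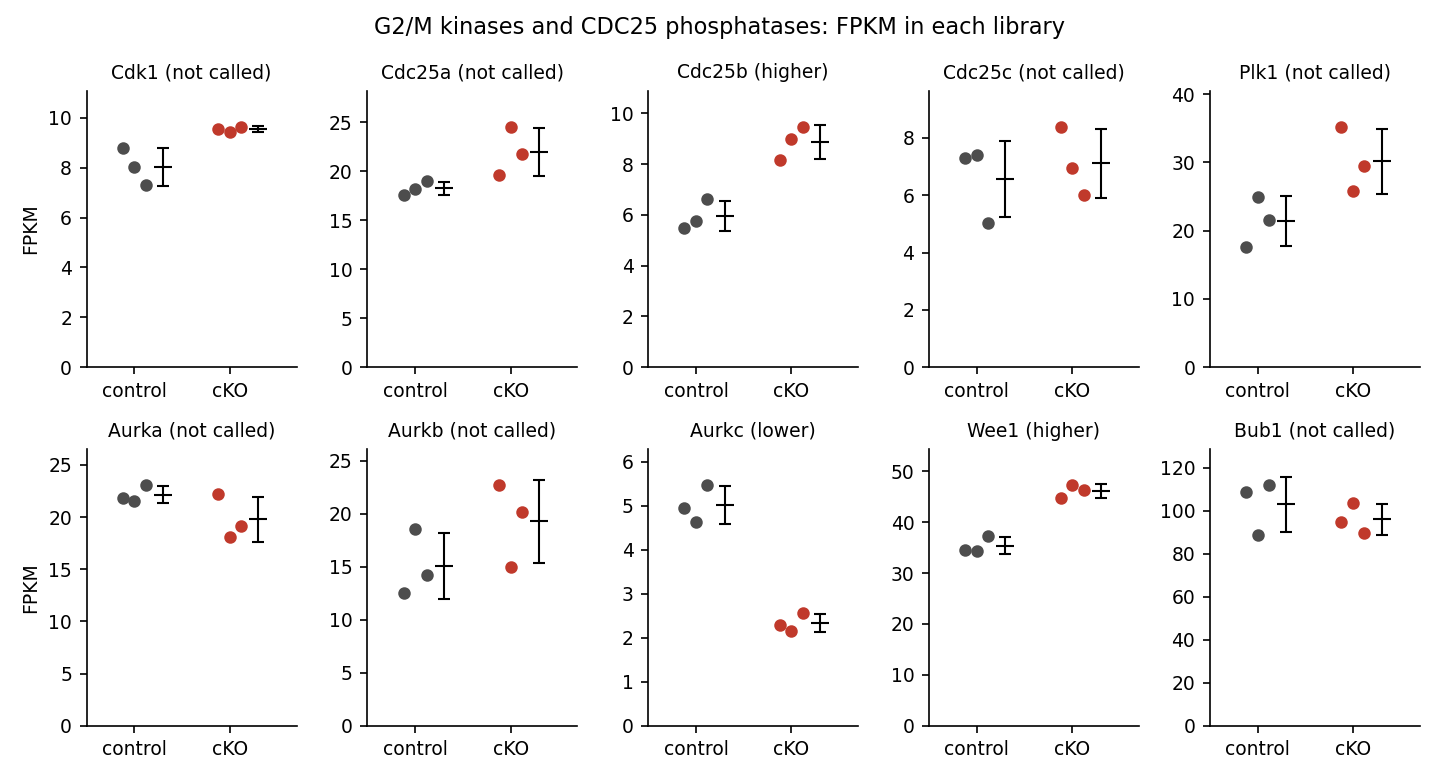
FPKM of each gene (vertical axis, starting at 0 in every panel) in the 3 control (grey) and 3 cKO (red) libraries, each library 1 point, with the mean and SD beside them in black. The cKO points of *Aurkc* lie between 2.15 and 2.55 FPKM, below all control points, and those of *Wee1* and *Cdc25b* lie above all control points.

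*Wee1* (chr7:110122046-110143286, GRCm38, plus strand), the kinase that restrains CDK1, was at 34.5, 34.4 and 37.2 FPKM in control replicates 1, 2 and 3 and at 44.7, 47.3 and 46.3 FPKM in cKO replicates 1, 2 and 3. All cKO libraries were above all control libraries, and the spread within each group was small. The gene rose 1.30-fold in FPKM, with a log2 fold change of 0.37 on the log2(FPKM + 1) scale (SE 0.065, 95% confidence interval 0.22 to 0.53, limma, adjusted p = 0.0050). The annotation holds a single transcript of *Wee1*, of 11 exons. Its only overlapping gene, the antisense *1600010M07Rik*, shares no exon base with it and had a mean of 0.267 FPKM.

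*Pkmyt1*, which encodes the membrane-bound kinase that also inhibits CDK1, changed in the other direction. It was at 11.9, 10.6 and 9.76 FPKM in the control and at 6.01, 3.26 and 5.22 FPKM in the cKO libraries, and its log2 fold change was -1.04 (SE 0.19, limma, adjusted p = 0.0063). *Wee2*, the relative of *Wee1* known from oocytes, was below the level for testing in all libraries, at 0.166 to 0.387 FPKM. The inhibitory kinases of CDK1 thus did not share a direction.

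*Cdk1* itself (chr10:69335146-69352938, minus strand) was at 8.81, 8.01 and 7.30 FPKM in the control and at 9.56, 9.44 and 9.65 FPKM in the cKO libraries. The groups did not overlap, but the difference did not pass the threshold (log2 fold change 0.23, 95% confidence interval 0.012 to 0.44, limma, adjusted p = 0.097). The SD was 0.108 FPKM between the cKO libraries and 0.756 FPKM between the control libraries. With quantile normalization the adjusted p of *Cdk1* was 0.0074, with limma-voom on the recovered fragments it was 0.047, and in the other alternatives it was between 0.052 and 0.27.

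The CDC25 phosphatases, which activate CDK1, summed to 30.4, 31.3 and 30.7 FPKM in the control and to 36.2, 40.5 and 37.3 FPKM in the cKO libraries. *Cdc25a* made up most of this sum in every library. *Cdc25b* (chr2:131186949-131198497, plus strand) was the only one of them to pass the threshold. It was at 5.49, 5.78 and 6.62 FPKM in the control and at 8.16, 8.99 and 9.48 FPKM in the cKO libraries. It rose 1.49-fold in FPKM, with a log2 fold change of 0.51 (SE 0.10, 95% confidence interval 0.26 to 0.75, limma, adjusted p = 0.0094). Its share of the CDC25 sum was 18.1, 18.4 and 21.6% in the control and 22.6, 22.2 and 25.4% in the cKO libraries, without overlap. *Cdc25b* shares 92 exon bases with *Spef1* on the opposite strand, and the strand setting of the counting is not given in the sources used here. *Spef1* fell, from 5.72 to 10.1 FPKM in the control to 1.34 to 2.69 FPKM in the cKO (log2 fold change -1.47, limma, adjusted p = 0.0046), which is the direction opposite to that of *Cdc25b*.

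*Cdc25a* (chr9:109875579-109893895, plus strand), which acts from the G1/S transition onwards, was at 17.6, 18.2 and 19.0 FPKM in the control and at 19.6, 24.6 and 21.8 FPKM in the cKO libraries. The lowest cKO value was just above the highest control value, and the difference did not pass the threshold (log2 fold change 0.25, 95% confidence interval 0.026 to 0.47, limma, adjusted p = 0.083). It passed with quantile normalization (adjusted p = 0.015), with FPKM recomputed from the fragments (0.041), with limma-voom (0.031) and without cKO replicate 1 (0.046). *Cdc25c*, the family member best known from mitotic entry (chromosome 18, minus strand), was at 7.29, 7.39 and 5.03 FPKM in the control and at 8.39, 6.97 and 6.0 FPKM in the cKO libraries. The groups overlapped, and its log2 fold change was 0.11 (95% confidence interval -0.30 to 0.51, limma, adjusted p = 0.66). At 169 to 256 fragments per library its counting error reached 7.69%. *Cdc25c* shares 623 exon bases with *Gm3550* on the opposite strand, which had a mean of 0.352 FPKM.

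**Figure D2:**
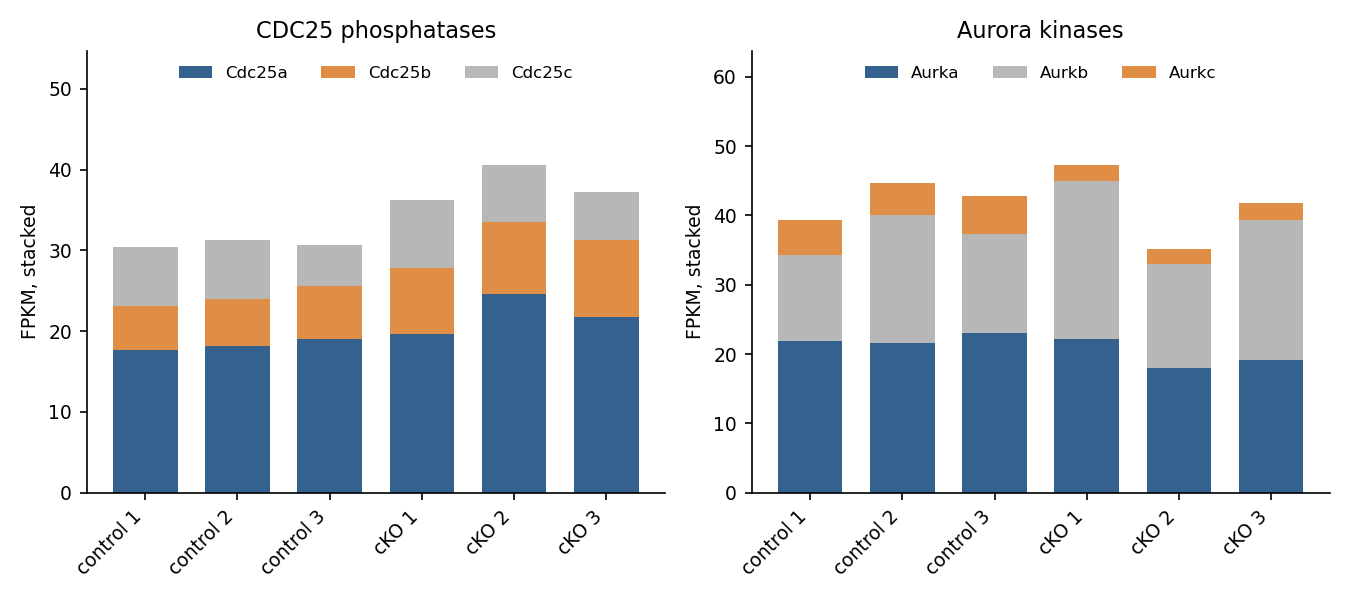
Stacked FPKM (vertical axis, starting at 0) of the 3 CDC25 phosphatase genes (left) and the 3 Aurora kinase genes (right) in each of the 6 libraries. The CDC25 sum is 30.4 to 31.3 FPKM in the control and 36.2 to 40.5 FPKM in the cKO, whereas the Aurora sums overlap and the orange *Aurkc* block narrows in every cKO library.

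*Plk1* (chr7:122159439-122169873, plus strand), the Polo-like kinase that promotes mitotic entry, was at 17.6, 25.0 and 21.6 FPKM in control replicates 1, 2 and 3 and at 35.3, 25.8 and 29.4 FPKM in the cKO libraries. The highest control library and the lowest cKO library were close together, and the adjusted p was just over the threshold (log2 fold change 0.48, SE 0.16, 95% confidence interval 0.11 to 0.85, limma, adjusted p = 0.053). The value turned on single libraries. Without control replicate 2, which stood apart in its spermatid markers, the log2 fold change was 0.59 and the adjusted p 0.033, and without cKO replicate 2 they were 0.58 and 0.045. Without control replicate 1 they were 0.35 and 0.14, and without cKO replicate 1, which had the highest Sertoli cell markers and the highest *Plk1*, they were 0.36 and 0.14. Over all 15 alternatives the adjusted p of *Plk1* ranged from 0.022 to 0.14, and 6 of them passed. *Plk1* shares 156 exon bases with *Gm44985* on the opposite strand, which was at 1.02 to 2.33 FPKM.

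Of the Aurora kinases, *Aurkc* (chr7:6995300-7003091, plus strand) was lower in the cKO. It was at 4.94, 4.63 and 5.47 FPKM in the control and at 2.30, 2.15 and 2.55 FPKM in the cKO libraries, or 124, 108 and 144 fragments against 55, 48 and 59. The groups were well separated. *Aurkc* in the cKO was at 46.6% of the control mean, and its log2 fold change was -0.85 (SE 0.11, 95% confidence interval -1.12 to -0.59, limma, adjusted p = 0.0013). The log2(FPKM + 1) scale understates changes at such low levels, and with a pseudocount of 0.1 the log2 fold change was -1.07.

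The value of *Aurkc* is the least certain of the 10 in its assignment of fragments. Of the 100-base windows of its annotated transcripts, 63.2% occur in no other annotated gene, against 99.2% for *Plk1*, which shares 0.756% of its windows with *Plk-ps1* (4.51 to 6.63 FPKM), and 100% for the other 8 genes. The annotated gene *Gm12463* on chromosome 4 shares 33.7% of the windows, and was at 3.29, 4.38 and 3.54 FPKM in the control and at 1.27, 1.45 and 1.39 FPKM in the cKO libraries (log2 fold change -0.99, limma, adjusted p = 0.0014). How fragments that match both genes were assigned is not given in the sources used here, so the signals of *Aurkc* and *Gm12463* cannot be told apart in the shared windows. Both were lower in all 3 cKO libraries. The markers of pachytene spermatocytes and spermatids fell alongside *Aurkc*, as given above, and their part in its fall was not tested.

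*Aurka* (chr2:172356190-172370535, minus strand), the Aurora kinase of centrosomes and spindle poles, was at 21.8, 21.5 and 23.1 FPKM in the control and at 22.2, 18.1 and 19.1 FPKM in the cKO libraries. *Aurkb* (chr11:69045647-69051664, plus strand), the catalytic subunit of the chromosomal passenger complex in mitosis, was at 12.5, 18.5 and 14.2 FPKM in the control and at 22.7, 15.0 and 20.2 FPKM in the cKO libraries. Both overlapped between the groups. The log2 fold change of *Aurka* was -0.16 (95% confidence interval -0.38 to 0.059, limma, adjusted p = 0.23), and that of *Aurkb* was 0.33 (95% confidence interval -0.11 to 0.77, limma, adjusted p = 0.21). *Aurkb* was among the most variable of the 10 genes within a group, with a coefficient of variation of 20.5% in the control and 20.4% in the cKO. Its highest value was in cKO replicate 1, and without that library its log2 fold change was 0.21, against 0.48 without control replicate 2 and 0.49 without cKO replicate 2. That of *Aurka* was -0.24 without cKO replicate 1 and -0.10 without cKO replicate 2.

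Summed FPKM of the Aurora kinases was 42.2 ± 2.73 in the control and 41.4 ± 6.03 in the cKO (SD, n = 3). *Aurkc* made up 12.6, 10.4 and 12.8% of the sum in the control and 4.87, 6.11 and 6.09% in the cKO libraries. *Aurkb* made up 31.9, 41.5 and 33.3% in the control and 48.1, 42.6 and 48.2% in the cKO libraries. Neither share overlapped between the groups (exact two-sided permutation p = 0.1 for each). That is the smallest p possible with 3 against 3 libraries. The share of *Aurka* overlapped (exact permutation p = 0.2). The 3 shares of a library are parts of 1 sum, so they do not move independently.

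*Bub1* (chr2:127801122-127831865, minus strand), the checkpoint kinase that marks centromeric chromatin for the passenger complex, was the most abundant gene of the 10. It was at 108.5, 88.6 and 112.0 FPKM in the control and at 94.9, 103.8 and 89.7 FPKM in the cKO libraries. The groups overlapped, and the log2 fold change was -0.09 (95% confidence interval -0.35 to 0.16, limma, adjusted p = 0.53). It ranged from -0.20 without control replicate 2 to -0.03 without control replicate 3. At 5910 to 8435 fragments per library, counting error was at most 1.30%, below the coefficients of variation of 12.3 and 7.42% between libraries.

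**Figure D3:**
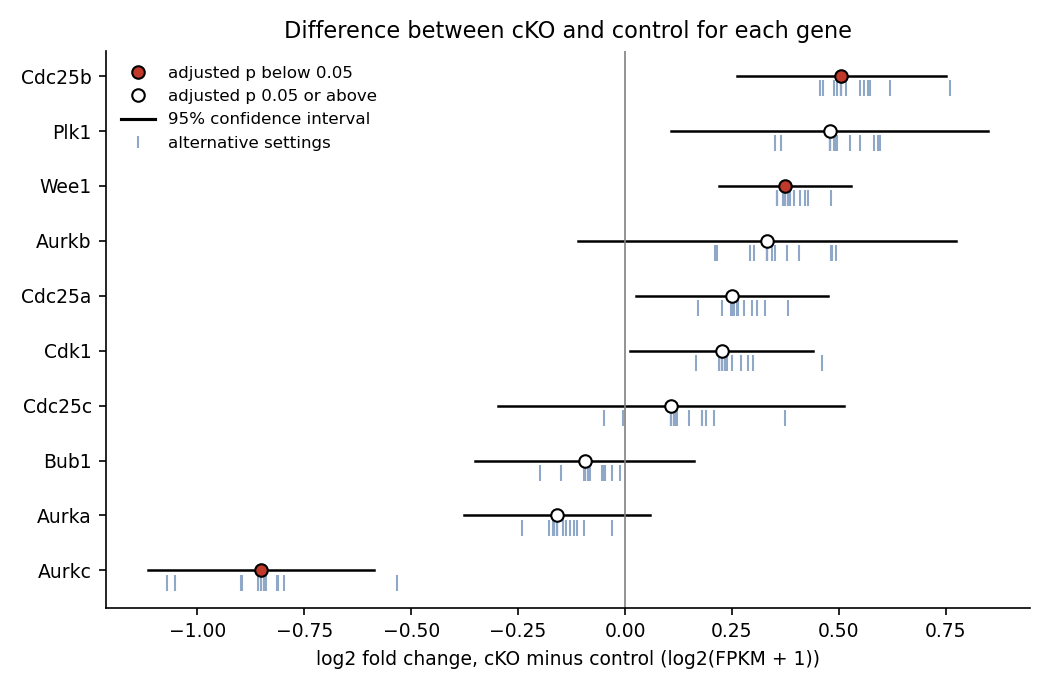
Log2 fold change of each gene, cKO minus control, on the log2(FPKM + 1) scale (horizontal axis; points, filled where the adjusted p is below 0.05) with its 95% confidence interval (lines) and its values under the alternative settings (ticks below each line). *Wee1*, *Cdc25b* and *Aurkc* are filled, the intervals of *Plk1*, *Cdc25a* and *Cdk1* lie above 0 without passing the adjusted threshold, and the ticks of *Cdc25c* fall on both sides of 0.

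Ratios between genes within a library were compared for 7 pairs. Each is the difference of log2(FPKM + 1), tested between the groups with an exact two-sided permutation test, in which 3 against 3 libraries cannot give a p below 0.1. The ratio of *Aurkc* to *Aurkb* was -1.41 ± 0.34 in the control and -2.59 ± 0.25 in the cKO (SD, n = 3), a difference of -1.18 without overlap (exact permutation p = 0.1). With the added 1 the scaling of libraries does not cancel fully at low levels, and with a pseudocount of 0.1 this difference was -1.42. The ratio of *Cdc25b* to *Cdc25a* differed by 0.26, also without overlap (exact permutation p = 0.1). Those are the smallest values the design allows. The other 5 ratios overlapped between the groups: *Cdc25c* to *Cdc25a* differed by -0.14, *Cdc25c* to *Wee1* by -0.27, *Aurka* to *Aurkb* by -0.49, *Plk1* to *Cdk1* by 0.25 and *Ccnb1* to *Cdk1* by 0.33 (exact permutation p from 0.2 to 1). Leaving out 1 library moved *Plk1* to *Cdk1* between 0.06 (without control replicate 1) and 0.37, *Cdc25c* to *Cdc25a* between -0.33 (without cKO replicate 1) and -0.05, and *Cdc25c* to *Wee1* between -0.46 (without control replicate 3) and -0.16.

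To place the 10 genes among those they act with, 89 genes in 9 lists were examined, of which 88 were tested. The cKO was higher for 26 of them (29.5%) and lower for 9 (10.2%), and their log2 fold changes had a median of 0.16, beside 11.8% and 22.2% of all genes tested. The calls held in all alternatives run for 18 of these 35 genes, and 17 lost theirs in at least 1. The number called higher was between 13 and 23 when 1 library was left out, with 13 without control replicate 1 or 3 and 16 without cKO replicate 1 or 3.

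Among 8 partners of CDK1, 4 were higher and 2 were lower. *Ccnb3*, an M-phase cyclin expressed in early meiotic prophase, was at 20.1, 14.1 and 19.0 FPKM in the control and at 71.9, 61.1 and 46.1 FPKM in the cKO libraries (log2 fold change 1.69, SE 0.19, limma, adjusted p = 0.00066). *Ccnb1* (0.56, adjusted p = 0.015), *Ccna2* (0.46, adjusted p = 0.0033) and *Cks1b* (0.54, adjusted p = 0.023) rose less. The calls of *Ccnb1* and *Cks1b* were lost without control replicate 1, control replicate 3 or cKO replicate 1, which left 2 of the list, and *Cks1b* also lost its call without cKO replicate 3. *Ccna1*, the meiotic A-type cyclin of spermatocytes, was at 13.4, 11.6 and 9.99 FPKM in the control and at 0.763, 0.186 and 1.08 FPKM in the cKO libraries (log2 fold change -2.95, SE 0.22, limma, adjusted p = 0.00010). *Hspa2*, a chaperone that assembles CDK1 with cyclin B1 in spermatocytes, fell from 163 to 187 FPKM in the control to 67.1 to 91.7 FPKM in the cKO (log2 fold change -1.16, limma, adjusted p = 0.00052). *Ccnb2* was at 39.3 to 44.7 and 44.9 to 49.4 FPKM and did not pass (log2 fold change 0.18, adjusted p = 0.11).

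Of the checkpoint kinases that act on CDC25 and WEE1, *Atm* (log2 fold change 0.60, adjusted p = 0.010) and *Chek1* (0.28, adjusted p = 0.034) rose, and *Chek2* (0.30, adjusted p = 0.055) and *Atr* (-0.01, adjusted p = 0.95) were not called. *Chek1* lost its call without any 1 of 5 libraries, all but cKO replicate 1, with an adjusted p of up to 0.085. In the pathway of Greatwall, the kinase that restrains the phosphatase PP2A-B55 while CDK1 is active, 3 of 9 genes were higher (*Arpp19* 0.36, *Ppp2r1a* 0.34, *Ppp2ca* 0.25) and *Ensa* was lower (-0.26). Of these, *Arpp19* alone was called in every alternative. *Mastl*, which encodes Greatwall, was at 6.54 to 7.40 FPKM in the control and 7.49 to 8.78 FPKM in the cKO (log2 fold change 0.19, adjusted p = 0.16). Without control replicate 1, control replicate 3, cKO replicate 1 or cKO replicate 3, 1 of the list was called higher and 0 lower.

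Among 7 other Polo-like kinases and activators of PLK1 and Aurora A, 2 were higher and 0 lower by limma, by limma-voom and at an unadjusted p below 0.05. *Tpx2*, which activates Aurora A on spindle microtubules, was at 43.2, 37.6 and 42.9 FPKM in the control and at 60.2, 61.1 and 53.2 FPKM in the cKO libraries (log2 fold change 0.49, limma, adjusted p = 0.0057). *Plk2* was at 2.47 to 3.84 and 5.39 to 7.51 FPKM (log2 fold change 0.81, limma, adjusted p = 0.012). *Bora*, the cofactor through which Aurora A activates PLK1, was at 8.63 to 9.65 FPKM in the control and 8.23 to 9.95 FPKM in the cKO (log2 fold change -0.03, adjusted p = 0.82).

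Of the passenger complex genes that serve Aurora B and Aurora C, none was called: *Incenp* had a log2 fold change of 0.44 (limma, adjusted p = 0.056), *Birc5* of -0.14 (0.26) and *Cdca8* of -0.0031 (0.98). *Incenp* was called higher without cKO replicate 2, at a mean of at least 5 FPKM, with quantile normalization, with recomputed FPKM and with limma-voom. *Haspin*, the kinase that marks histone H3 for the complex, was at 45.8, 61.1 and 41.1 FPKM in the control and at 9.17, 6.46 and 8.22 FPKM in the cKO libraries, the largest fall of the 88 genes after *Ccna1* (log2 fold change -2.48, SE 0.17, limma, adjusted p = 7.3e-05).

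In the spindle assembly checkpoint, where BUB1 works, 5 of 10 genes were higher and 0 lower by limma (7 and 0 at an unadjusted p below 0.05 and by limma-voom), by 0.25 to 0.31 on the log2 scale (*Trip13*, *Sgo1*, *Zwint*, *Bub3* and *Ttk*). These calls were not stable. Without control replicate 1, control replicate 3 or cKO replicate 3 none of the 10 was called, and without cKO replicate 1 or cKO replicate 2 there were 2 and without control replicate 2 there were 3. *Bub1b* (log2 fold change 0.27, adjusted p = 0.088) and *Mad2l1* (-0.02, adjusted p = 0.87) were not called.

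Of 19 genes of the anaphase-promoting complex and its targets, 2 were higher (*Anapc7* 0.41 and *Ube2c* 0.59 on the log2 scale) and 2 were lower. *Anapc2* fell from 46.1 to 49.7 FPKM in the control to 28.0 to 29.9 FPKM in the cKO (log2 fold change -0.68, limma, adjusted p = 0.00034), and *Pttg1*, the securin gene, fell by 0.66 on the log2 scale (adjusted p = 0.0094). *Ube2c* lost its call without control replicate 1, control replicate 3, cKO replicate 1 or cKO replicate 3. *Cdc20* (0.17, adjusted p = 0.40) and *Fbxo5* (0.08, adjusted p = 0.63) were not called. Among 14 transcription factors that drive or repress G2/M genes, none was higher and *Lin37* (-0.34, adjusted p = 0.027) and *Rbl2* (-0.46, adjusted p = 0.041) were lower by limma (1 higher and 2 lower at an unadjusted p below 0.05, 2 higher and 1 lower by limma-voom). No library could be left out without the loss of at least 1 of these calls. *Foxm1* (-0.19, adjusted p = 0.26), *Mybl1* (0.01, adjusted p = 0.96) and *Mybl2* (0.22, adjusted p = 0.094) were not called.

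The 12 mitotic effectors, which encode motors, kinetochore proteins and spindle proteins acting downstream of the kinases, had 8 genes higher and 0 lower by limma (11 and 0 at an unadjusted p below 0.05 and by limma-voom) and a median log2 fold change of 0.38. The number called higher was 5 with the replicate block, 6 without control replicate 1, control replicate 3 or cKO replicate 1, and 7 without cKO replicate 2. *Kif11*, the motor that separates spindle poles, was at 29.2, 29.1 and 31.0 FPKM in the control and at 50.1, 51.7 and 50.5 FPKM in the cKO libraries (log2 fold change 0.75, SE 0.062, limma, adjusted p = 0.00015). *Kif23* (0.62, adjusted p = 0.0040) and *Cenpf* (0.70, adjusted p = 0.0047) followed. In all 12 the cKO libraries lay above the control libraries, against 50.4% of all genes tested whose groups did not overlap in either direction.

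**Figure D4:**
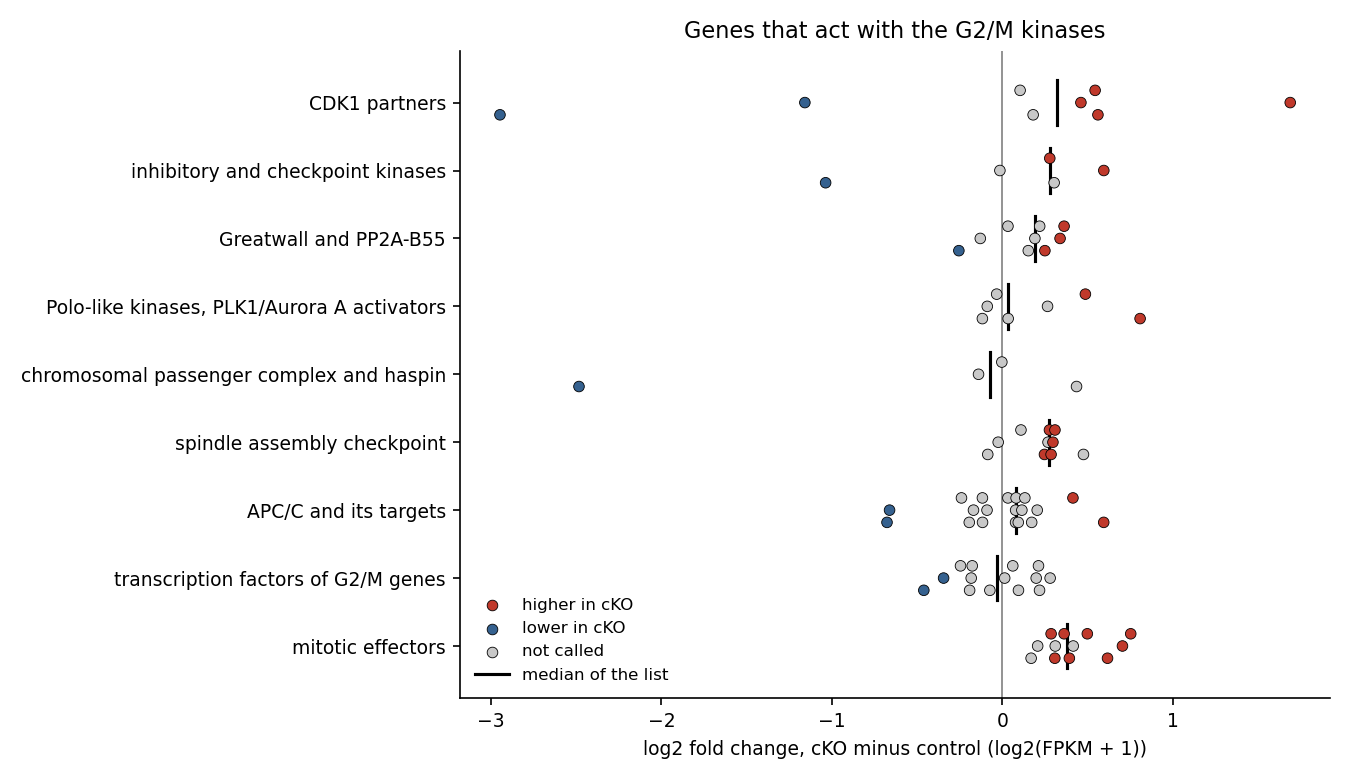
Log2 fold change, cKO minus control, on the log2(FPKM + 1) scale (horizontal axis) of the 88 tested genes in 9 lists (rows), each gene 1 point, red where higher, blue where lower and grey where not called, with the median of the list as a black bar. The mitotic effectors lie to the right of 0 without exception, and *Ccna1*, *Haspin*, *Hspa2* and *Pkmyt1* lie beyond -1.

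For each of the 10 genes, the 2 of these 88 genes with the most similar profile over the 6 libraries were taken, by Pearson's r of log2(FPKM + 1). These values describe 6 libraries in 2 groups, so genes that differ between the groups correlate through that difference. *Aurkc* was most like *Ccna1* (r = 0.98) and *Anapc2* (0.97), both lower in the cKO. *Wee1* was most like *Kif11* (0.99) and *Kif23* (0.97), and *Cdc25b* was most like *Kif11* (0.96) and *Trip13* (0.94). *Cdk1* was closest to *Prc1* (0.98) and *Zwint* (0.90), *Cdc25a* to *Lin54* and *Chek1* (both 0.95) and *Plk1* to *Ube2c* (0.98) and *Ppp2r2a* (0.97). Among the genes whose groups overlapped, *Cdc25c* was closest to *Cks2* (0.96) and then to *Plk3* (0.61), *Aurka* to *Pttg1* (0.87) and *Foxm1* (0.86), *Aurkb* to *Fzr1* (0.95) and *Ppp2cb* (0.92), and *Bub1* to *Mybl1* (0.89) and *Atr* (0.88).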

How the data were processed

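RNA-seq of STRA8+ mouse testis cells was analysed in 3 control and 3 *Srsf1* cKO libraries, grouped by the genotype in the labels. The authors deposited 1 table of FPKM for 54532 genes with gene lengths. The submitters' processing notes name HISAT2 2.0.5 and mm10, and the counting tool, annotation and strand setting are not given in the sources used here. From FPKM and gene length, whole fragments were recovered for 100% of values (within 0.05 of a whole number), giving 14447887 to 17310353 fragments per library. This depth limits the precision of genes with few fragments. The library size used in the deposited FPKM was 0.971 to 0.999 times the recovered fragments in the control. In the cKO it was 0.993 to 1.052 times. The recomputed FPKM below use the recovered fragments instead.

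The 15451 genes that reached a mean of 1 FPKM over all libraries were fitted on the log2(FPKM + 1) scale in R 4.3.3 with limma 3.58.1 (lmFit and trended eBayes), and p-values were adjusted by Benjamini-Hochberg over all of them, with a threshold of 0.05. A log2 fold change understates the change of low genes. The test was run on simulated data with known changes of 2-fold or larger. Smaller changes, such as those of *Wee1* and *Cdc25b*, were not simulated. The genes, the lists and the motifs were chosen with earlier results of these data known. Named were the 10 genes, *Srsf1*, 22 pathway genes whatever their result, the 3 genes with the smallest adjusted p in each direction per list, and the 2 most similar genes for each of the 10. *Spef1*, *Gm12463* and other genes that overlap or share sequence with them were named after their values had been seen. Coordinates are those of the table, which equal GENCODE M21 (GRCm38) for 9 of the 10 genes, and *Cdc25c* differs in its start.

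Alternatives were a pseudocount of 0.1, no filter, a mean of at least 5 FPKM, median-of-ratios scaling, quantile normalization, FPKM recomputed from the fragments, no trend, limma-voom, the replicate number as a block and leaving out each library in turn.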

Additional observations from a re-analysis of the deposited data

How the results depend on the processing

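*Wee1* and *Cdc25b* were higher and *Aurkc* was lower under every alternative in which they were tested (*Aurkc* was not tested at a mean of at least 5 FPKM, which left 0 of the 10 genes called lower). 5 of the 10 genes were called higher with quantile normalization and with limma-voom and 4 with recomputed FPKM, against 2 as reported. The added genes were *Cdk1* (log2 fold change 0.46 with quantile normalization, 0.30 with limma-voom), *Cdc25a* (0.38, 0.31 and, recomputed, 0.30) and *Plk1* (0.60, 0.55 and 0.52, and 0.48 at a mean of at least 5 FPKM). Quantile normalization moved the median of all genes to 0.21. Relative to it *Cdk1* was at 0.25, *Cdc25a* at 0.17 and *Plk1* at 0.38. It gave 5164 genes higher and 2527 lower, so that 67.1% of the calls were higher, against 34.6% as reported, and 47 of the pathway genes were higher. A mean of at least 5 FPKM gave 1950 genes lower, of 8929 tested.

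Leaving out each library in turn gave 965 to 1752 genes higher, 13 to 23 pathway genes higher, and log2 fold changes of 0.17 to 0.33 for *Cdc25a*, 0.35 to 0.59 for *Plk1* and -0.049 to 0.21 for *Cdc25c*, which changed sign without control replicate 3 or cKO replicate 1. The ranges were 0.21 to 0.49 for *Aurkb*, -0.24 to -0.10 for *Aurka* and -0.20 to -0.03 for *Bub1*, none of which was called. The deviations of libraries with the same number from their group means had r = -0.0014, -0.11 and 0.016. Between libraries of different numbers r was -0.15 to 0.13. Whether libraries of the same number share an origin cannot be decided from 3 libraries per group. With the replicate block, 891 genes and 13 pathway genes were higher with 0 of the spindle assembly checkpoint genes and 5 of the mitotic effectors, while the calls of the 10 genes were as reported. The cause of these shifts was not tested. No ratio changed sign, but *Plk1* to *Cdk1* (0.06 to 0.37), *Cdc25c* to *Cdc25a* (-0.33 to -0.05), *Cdc25c* to *Wee1* (-0.46 to -0.16) and *Ccnb1* to *Cdk1* (0.20 to 0.47) moved by over 1.5 times when 1 library was left out. *Aurkc*, at 48 to 144 fragments per library, had a counting error of up to 14.4%.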
